A study of Mus musculus with 4 samples.

Results

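The loci described here are spliced transcripts that were assembled from heart RNA in regions lying far from every annotated locus, and they are called remote spliced loci. They were chosen from the deposited transcript models on the mouse build mm9 by structure and position, apart from 1 locus left out by name. A locus was taken if none of its models came from UCSC, the gene set used as annotation, and if all of its models had the assembler's class code u, which marks intergenic transcripts. At least 1 model had to have 2 or more exons, and the span of the locus had to lie more than 10 kb from the span of every locus with a UCSC model on either strand. Of 35299 loci, 9221 had no UCSC model, 8534 of these were intergenic throughout and 1280 of those had a spliced model. Within 10 kb of a locus with a UCSC model lay 524 of the 1280, named near spliced loci below. The locus XLOC_008068, which took 0.0404% of all normalised counts, was left out by name. The totals, shares and rankings of remote spliced loci below do not include it. The remaining 755 loci, 59.0% of the 1280 and 2.14% of all loci, are the remote spliced loci.

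All 4 samples belong to 1 group, named Sham. They are hearts of C57BL/6J mice aged 12 weeks, sampled 2 weeks after sham surgery at the site matching the border zone of an infarct. The free-text label of replicate 4 omits the word sham, while its other labels give it. RNA was selected for poly(A) tails and read in pairs of 100 bases. The columns of the count table, 3RL, 7LR, 8R and 12RL, match no label, so the hearts are named by column, and replicate 4 cannot be pointed out among them. The libraries are biological replicates per the series' design text.

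Long noncoding RNAs are transcripts that are made and spliced like messenger RNAs but encode no protein. Those that lie between genes tend to have few exons, low levels and tissue-restricted expression, and the heart is known to make many of them. An assembler builds transcripts from aligned reads, so a transcript called intergenic is one that lacked a model in the annotation used. It may be a noncoding RNA, a piece of a gene that the annotation lacks, or an extension of a neighbour.

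The deposited models carry no sequence, and no genome of mm9 was used here. Exon and intron lengths can be compared without converting coordinates. They were compared with those of GENCODE M21, a later annotation made on GRCm38. A length that differs between the builds gives no match. A locus was said to share a structure where an internal exon and both introns beside it had exactly the same lengths as in a GENCODE transcript on the same chromosome and strand. No coordinate was converted and no gene name was taken. The 5 highest remote spliced loci that shared a structure with a single long noncoding gene through an internal exon of 60 to 200 bases are shown, so that the RNA in question can be read. They were chosen after their values were seen. Each is given by 1 such exon, with its position on mm9 and the letters of the GENCODE M21 transcript, 5′ to 3′ along the transcript. Lower case is the exon, and capitals mark the last 10 bases of the exon before it and the first 10 bases of the exon after it, so both splice junctions lie where the case changes.
XLOC_002849, chr10:56692296-56692419, minus strand: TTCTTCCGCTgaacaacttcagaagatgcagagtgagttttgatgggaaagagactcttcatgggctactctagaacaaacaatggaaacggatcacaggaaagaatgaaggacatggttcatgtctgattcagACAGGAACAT
XLOC_003170, chr10:99596758-99596922, minus strand: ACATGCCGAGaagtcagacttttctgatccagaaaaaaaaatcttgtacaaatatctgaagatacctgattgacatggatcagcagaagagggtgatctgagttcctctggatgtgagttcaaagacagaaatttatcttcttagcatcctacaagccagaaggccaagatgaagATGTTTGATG
XLOC_004626, chr11:117297663-117297809, plus strand: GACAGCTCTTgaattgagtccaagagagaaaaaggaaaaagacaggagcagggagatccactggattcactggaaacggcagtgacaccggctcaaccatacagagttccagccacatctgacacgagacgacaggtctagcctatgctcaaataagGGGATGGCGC
XLOC_019782, chr3:53533877-53533967, plus strand: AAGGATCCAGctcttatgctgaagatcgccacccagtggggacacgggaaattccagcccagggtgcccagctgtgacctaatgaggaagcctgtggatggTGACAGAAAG
XLOC_006232, chr12:71752614-71752705, plus strand: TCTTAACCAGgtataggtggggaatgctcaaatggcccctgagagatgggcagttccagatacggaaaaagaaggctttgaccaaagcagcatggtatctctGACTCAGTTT

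These exons were 91 to 165 bases long and had between 38.8% and 58.2% G and C. The exon of XLOC_002849, the most abundant remote spliced locus, has 124 bases between introns of 1628 and 3162 bases. That of XLOC_006232 lies beside an intron of 41741 bases.

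Of the remote spliced loci that could be compared, 25.4% had a structure of the later annotation, and not all of these were noncoding genes. An internal exon was present in 398 of the 755 loci, and 101 of the 398 shared one. The same comparison found a match for 17962 of 18444 spliced loci with a UCSC model (97.4%) and for 68 of 215 near spliced loci (31.6%). None of the 398 loci had a run of lengths found on another chromosome or strand. Of the 101 loci, 69 matched long noncoding genes, 25 protein-coding genes and 7 pseudogenes, and no locus matched more than 1 of these kinds. The other 357 loci had 2 exons at most, hence no internal exon, and were not compared. The class code is therefore relative to the UCSC models: 25 loci called intergenic had exons of the lengths of a protein-coding gene.

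The loci with the most exons were those with protein-coding structures. Of the 8 loci with a model of 10 or more exons, 8 matched a protein-coding gene. Of the 91 with 5 to 9 exons, 37 matched (40.7%), 22 of them long noncoding genes, 10 protein-coding genes and 5 pseudogenes. Of the 299 with 3 or 4 exons, 56 matched (18.7%), with 47 long noncoding genes among them. A locus with more internal exons has more chances of a match, so these shares do not rank the groups. The protein-coding matches were also the more complete. They covered 162 of 219 internal exons (74.0%) in the 25 loci, and 12 of the 25 matched in every internal exon. In the 69 loci with long noncoding structures 109 of 382 internal exons matched (28.5%), and 18 of the 69 matched in every one.

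The 40-exon locus XLOC_010339 (chr15:58362041-58496627, plus strand) is the longest chain among the remote spliced loci. It matched a protein-coding structure in 36 of its 52 distinct internal exons. It lay 72745 bases from the nearest locus with a UCSC model. Its normalised read counts, the read counts divided by the authors' size factor for the library, were 171 and 181 in 3RL and 8R, and 222 and 233 in 7LR and 12RL, so the latter pair was higher. XLOC_029671 (chr7:128785411-128850951, minus strand) had up to 16 exons and matched in 14 of 15 internal exons. Hearts 3RL and 8R gave 2574 and 2930 counts, fewer than the 3587 of 7LR and the 3767 of 12RL. It is among the 10 highest. XLOC_019854 (chr3:83073118-83155748, plus strand) also had 16 exons, and 14 of 14 internal exons matched. With 21.5, 19.4, 9.09 and 30.0 counts in 3RL, 7LR, 8R and 12RL it was near the limit of detection.

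Most remote spliced loci were short chains. The median of the largest exon number was 3, and 357 loci (47.3%) had 2 exons only, 299 (39.6%) had 3 or 4, and 99 (13.1%) had 5 or more. Spliced loci with a UCSC model had a median of 7 exons, and 70.4% of them had 5 or more. The median longest transcript was 2414 bases in remote spliced loci, 2222 bases in near spliced loci and 2996 bases in UCSC loci. Remote spliced loci spread over more of the genome than near ones, with a median span of 9065 bases against 5532 bases and a median longest intron of 4606 bases against 1958 bases. A gap to the annotation leaves room for a longer span, and no test was made of these structural differences. Strands were even, with 378 loci on the plus and 377 on the minus strand. The 755 loci held 2050 models, 305 loci had a single one, and 318 had more than 1 start site.

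Some models of these loci were unspliced. In 206 of the 755 loci (27.3%) at least 1 model had a single exon, and in 43 (5.70%) the exons of all models together covered the whole span, so that every intron of one model lay within an exon of another. XLOC_000592 (chr1:169463864-169508450) is such a locus, with 44587 bases of span and as many of exon. It had only 2.22 normalised counts per kb of exon, and 84.7% of its exon bases lay within exons of other loci. XLOC_007917 (chr13:5538566-5723911, minus strand) had the most models, 19, of up to 7 exons over 185346 bases. Next were XLOC_023450 (chr5:9744099-9956219, plus strand) with 16 models and XLOC_022264 (chr4:55979317-56013732, minus strand) with 15. These 3 loci had similar means of 1220 ± 232, 1252 ± 304 and 1055 ± 237 normalised counts (SD, n = 4). XLOC_007917 and XLOC_022264 shared a structure with a long noncoding gene, and XLOC_023450 did not.

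Remote spliced loci gave little of the RNA of these hearts, yet most of them were detected. They took 0.0905% ± 0.00917 of all normalised counts (SD, n = 4), with a value of 0.104% in 7LR, 0.0894% in 12RL and 0.0844% in both 3RL and 8R. Library 7LR was the highest, and the other 3 lay close together. The share was 0.130% of the counts of nuclear loci, since mitochondrial loci take a large part of the total. Leaving out the 25 loci with protein-coding structures gave 0.0836%. The near spliced loci took 0.0562% ± 0.00484, and the single locus left out by name took 0.0404% ± 0.0101. A mean of 10 or more normalised counts was reached by 561 loci (74.3%), against 53.6% of all loci of the table. Near spliced loci (73.3%) and spliced UCSC loci (70.7%) were similar, and single-exon intergenic loci at the same distance were lower (35.6%). Of the remote spliced loci, 683 were above 0 in all 4 libraries, against 66.8% of all loci as the background. A locus enters this list only through reads that were assembled, and a UCSC model needs none, so these shares are not like for like. Means of 50, 200 and 1000 were reached by 335, 139 and 36 of the 755 loci. For spliced UCSC loci the counts were 12908, 11410 and 8891 of 20485. Of all 35299 loci, 14424 reached a mean of 50. The recovered reads of the libraries ran from 108345923 in 12RL to 160670654 in 8R, and the median remote spliced locus had 22.0 to 35.0 reads per library.

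A few loci held a large part of these counts. The 10 highest took 28.6% ± 0.654 of the counts of all remote spliced loci (SD, n = 4). The 69 loci with long noncoding structures took 24.3% ± 0.532, and the 25 with protein-coding structures 7.59% ± 0.397. XLOC_002849 (chr10:56687348-56702278, minus strand), whose exon is the first printed above, had 12243 normalised counts in 7LR, 10868 in 3RL, 10055 in 8R and 9146 in 12RL. It lies 492125 bases from the nearest UCSC locus, far beyond the median distance of 42352 bases. Its lowest library lies above the highest of every other remote spliced locus.

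XLOC_018334 (chr2:77148164-77155416, minus strand) came second, with models of 2 exons and 1 start site. Hearts 7LR and 12RL gave 5342 and 5381 counts, and 3RL and 8R gave 7731 and 7386. The libraries fall into 2 close pairs, with 3RL and 8R high. XLOC_007852 (chr13:103119612-103130951, plus strand) was the third, with up to 4 exons. It had 4747 counts in 3RL, and 6880, 6206 and 6304 in 7LR, 8R and 12RL, so 3RL was low and the others lay close together. XLOC_030410 (chr8:41209921-41231045, plus strand) followed with 3279, 6408, 4633 and 4825 counts in the same order. Here 7LR was high and 3RL low. Only 1 of the 3 models of XLOC_030410 was spliced, with an intron of 20324 bases in a span of 21125 bases. Most of the 20139 bases of exon of this locus thus belong to its unspliced models. None of the 3 loci XLOC_018334, XLOC_007852 and XLOC_030410 shared a structure with GENCODE, and 2 of them had no internal exon to compare.

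XLOC_006404 (chr12:100881316-100885426, plus strand) differed most between hearts among the 10 highest. Its highest count was 4352 in 12RL, followed by 2589 in 3RL, 1993 in 7LR and 1431 in 8R, a CV of 48.8%. Its 2-exon model lies under an unspliced one of the same span. XLOC_016279 (chr19:36282475-36342156, minus strand) shared a long noncoding structure and had up to 5 exons and 7 start sites. It had 2428, 3590, 3030 and 3582 counts in 3RL, 7LR, 8R and 12RL, with 7LR and 12RL high. XLOC_028284 (chr7:105638372-105650343, plus strand) matched a protein-coding structure in 1 of 2 internal exons and had 3024, 1865, 2842 and 2299 counts. Here 7LR and 12RL were low. XLOC_033360 (chr9:92079881-92122130, minus strand) and XLOC_009335 (chr14:63913953-63964437, plus strand) closed the 10 with means of 2403 ± 304 and 2354 ± 404 (SD, n = 4). Both had several internal exons, 12 and 11, with no GENCODE structure.

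**Figure D1:**
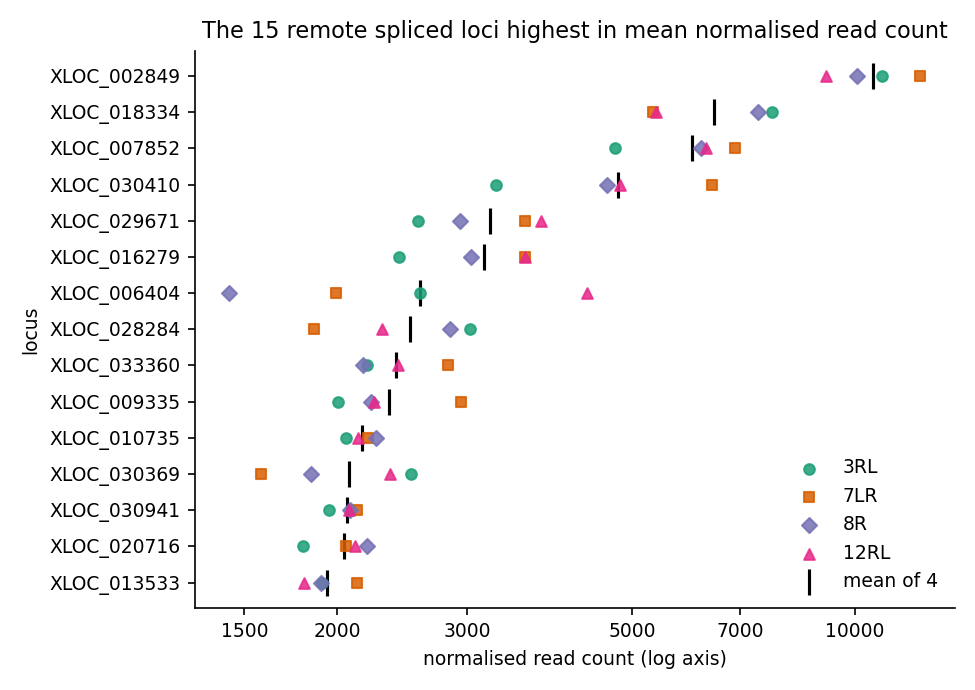
Normalised read counts (log axis) of the 15 remote spliced loci with the highest means, 1 row per locus, with 1 point per library and a bar at the mean of 4. XLOC_002849 lies above all others in every library, and XLOC_006404 has the widest scatter, from 1431 in 8R to 4352 in 12RL.

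Levels of loci are compared per kb of exon from here on, because long loci collect more reads. On this scale 4 short loci joined the most abundant. XLOC_020395 (chr3:63285053-63287888, minus strand), with 314 bases of exon, was the highest at 2897 normalised counts per kb. It shared a protein-coding structure in 1 of 2 internal exons and had 738, 850, 1149 and 902 counts in 3RL, 7LR, 8R and 12RL. XLOC_010735 (chr15:102966198-102971030, plus strand) had 2444 per kb and XLOC_023848 (chr5:111919764-111921386, plus strand) 1938 per kb. XLOC_002849 had 1668 per kb and XLOC_030941 (chr8:4087277-4088679, minus strand) 1580 per kb. Of the 10 highest loci by count, 5 were among the 10 highest per kb.

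Of these 4 short loci, 2 were very even between hearts. XLOC_030941 had 1954, 2132, 2083 and 2073 counts in 3RL, 7LR, 8R and 12RL, a CV of 3.66%. XLOC_010735 had 2059, 2200, 2258 and 2135, a CV of 3.96%. The median CV of the 36 remote spliced loci whose mean reached 1000 was 18.3%, so both lie far below their class. The other two were less even, with CVs of 11.4% in XLOC_023848 and 19.1% in XLOC_020395.

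Levels were higher in loci with more exons. The median was 11.3 normalised counts per kb for 357 loci with 2 exons, 16.5 for 299 loci with 3 or 4, and 28.5 for 99 loci with 5 or more. A mean of 10 or more was reached by 65.8%, 78.6% and 91.9% of them. Assembly of a long chain needs reads over each junction, so exon number and level are not independent measures, and no test was made. Distance from the annotation went with no such order. The median was 13.0 per kb at 10 to 20 kb, 16.1 at 20 to 50 kb, 14.0 at 50 to 100 kb, 15.9 at 100 to 500 kb and 15.2 in the 12 loci beyond 500 kb. Loci with long noncoding structures had a median of 31.8 per kb, those with protein-coding structures 17.3, and loci whose internal exons had no GENCODE structure 17.4. Matches depended on exon number, with 18.7% of loci with 3 or 4 exons matched and 40.7% of those with 5 to 9. These medians were not adjusted for exon number, and no test was made.

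**Figure D2:**
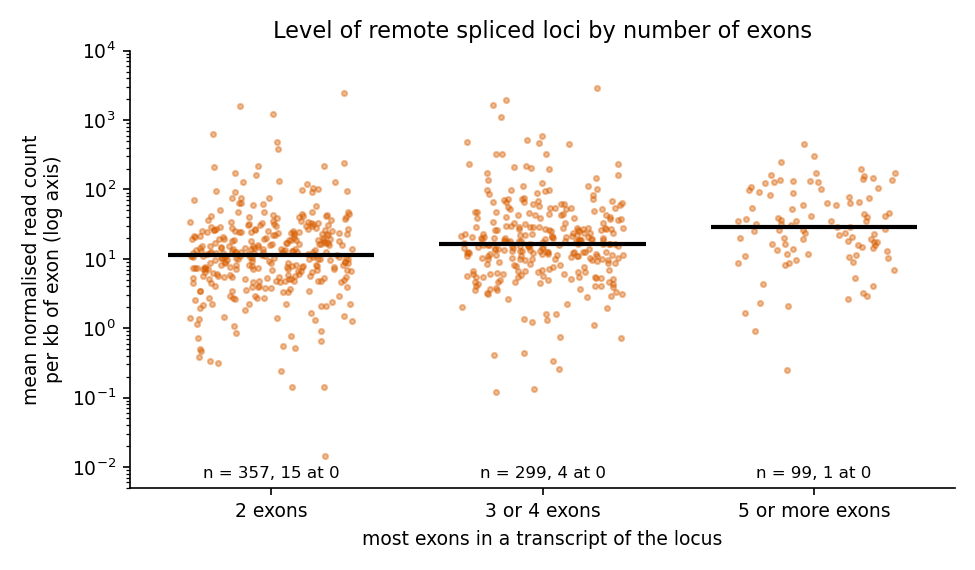
Mean normalised read count per kb of exon (log axis) of each remote spliced locus, by the largest number of exons in one of its models. Each point is a locus, the horizontal bar is the median of all loci of the column, and loci at 0 are counted below the points; the medians are 11.3, 16.5 and 28.5.

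Remote spliced loci were set against 3 other classes of loci to place their level. The difference of the median log2(value + 1) was taken within each library, among loci above 0, so that the 4 libraries and not the loci are the replicates. Per kb, the median of the 735 remote spliced loci above 0 exceeded that of 506 near spliced loci by 0.24 ± 0.12 on the log2 scale (SD, n = 4). The difference was 0.34 in 7LR and 8R, 0.16 in 3RL and 0.13 in 12RL, all in the same direction. Flipping the signs of the 4 differences in an exact two-sided permutation test gave p = 0.13, which is the lowest value possible with 4 libraries. Without division by length it was 0.50 ± 0.11.

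Against 2755 single-exon intergenic loci at the same distance, the remote spliced loci were higher per kb by 1.27 ± 0.17 on the log2 scale, in 4 of 4 libraries. Against 17782 spliced loci with a UCSC model they were lower, with a difference of -3.75 ± 0.11, in 4 of 4 libraries. Both gave p = 0.13 in the same exact test, and Benjamini-Hochberg adjustment over the 6 comparisons made on both scales left each at 0.13. A spliced model needs reads over a junction to be assembled, so exon number and level are not independent in the single-exon comparison. As medians of all loci with zeros included, the levels were 14.5 per kb for remote spliced loci, 12.3 for near ones, 6.09 for single-exon ones and 115 for UCSC loci. No group of libraries was compared, and no threshold of 0.05 can be passed with 4 libraries.

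**Figure D3:**
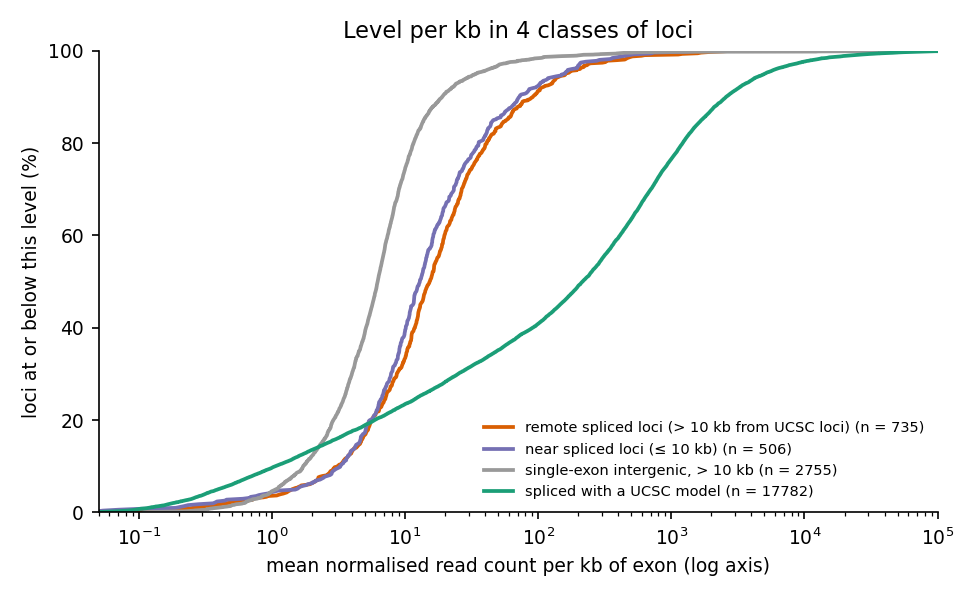
Cumulative share of loci (%) against the mean normalised read count per kb of exon (log axis) for 4 classes of loci above 0. The curves of remote (n = 735) and near (n = 506) spliced loci run close together, to the right of single-exon intergenic loci and left of most spliced loci with a UCSC model.

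The counts varied between hearts by more than counting error at all 4 levels examined, from a mean of 10 up. The SD of log2(value + 1) over the 4 libraries had a median of 0.34 in the 561 loci with a mean of 10 or more, and the median CV was 23.7%. At means of 10 to 50 the median CV was 30.1%, where counting error alone gives 23.6% at the median of 18.0 reads. At means of 200 to 1000 it was 16.2% against 5.84%, and from 1000 up it was 18.3% against 2.72%. Between pairs of libraries, the log2 levels of the 561 loci correlated with Pearson's r between 0.944 and 0.964, a value across loci, which are not independent replicates. A chi-square comparison of their reads gave at least 8.66 per degree of freedom in each of the 6 pairs, so no pair looked like 1 library sequenced again.

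The spread of remote spliced loci was close to that of UCSC loci at low means and above it at high means. At means of 10 to 50 the median SD was 0.43 in 226 remote spliced loci, 0.42 in 195 near ones and 0.43 in 1571 spliced UCSC loci. At 200 to 1000 it was 0.24 in 103 remote, 0.26 in 57 near and 0.19 in 2519 UCSC loci. From 1000 up it was 0.27 in 36 remote, 0.18 in 23 near and 0.12 in 8891 UCSC loci, but the last have a median mean of 4429 against 1680. Single-exon intergenic loci had the highest medians in all 4 bins, between 0.32 and 0.58. These are descriptions of 4 libraries, with no test.

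**Figure D4:**
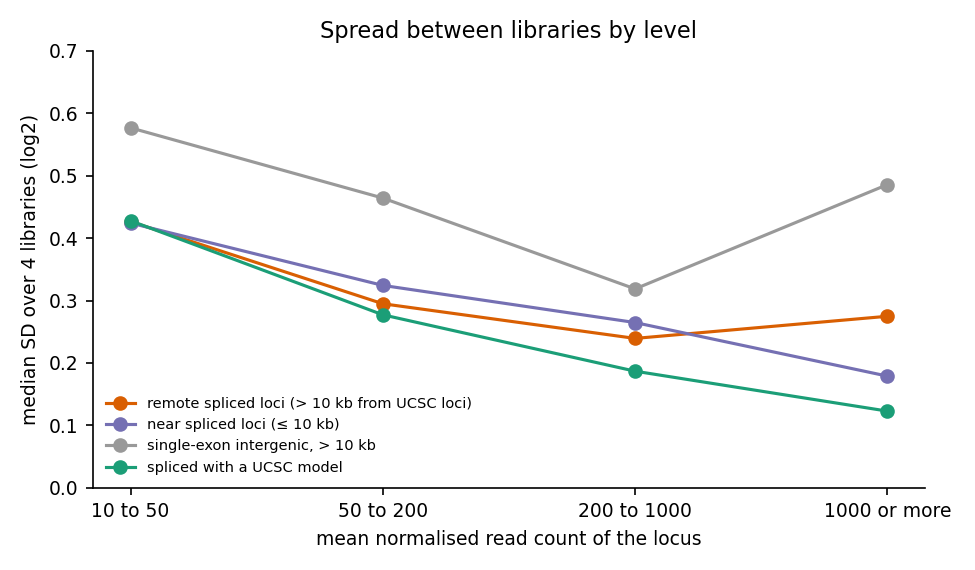
Median over loci of the SD of log2(value + 1) between the 4 libraries, by bin of the mean normalised read count, for the 4 classes of loci. The remote spliced loci fall from 0.43 to 0.24 and stand at 0.27 in the highest bin, where the UCSC loci stand at 0.12.

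Library 7LR was most often the highest at remote spliced loci. Of the 335 loci whose mean reached 50, 138 (41.2%) were highest in 7LR, against 18.7% of all 14424 loci at that level. Library 8R was the highest at 93 (27.8%), against 38.6% of all loci. Library 3RL was highest at 54 (16.1%, background 23.9%) and 12RL at 50 (14.9%, background 18.8%). Heart 7LR was highest at 20 of the 36 loci with means from 1000 up (55.6%), against 26.1% of near spliced loci and 15.4% of spliced UCSC loci at that level. The shares lay closer together at means of 50 to 200, with 39.3% of 196 remote, 31.2% of near and 24.8% of UCSC loci. At means of 200 to 1000 they were 39.8%, 26.3% and 19.6%. Loci of a library share its RNA and preparation, so these counts are not independent and carry no test. Scaling to equal table totals gave 55.4% in 7LR against 35.2% of all loci, so remote spliced loci were above the background under both scalings. Single-exon intergenic loci, which also lack a UCSC model, were highest in 7LR at 43.9% of those with means of 50 to 200 and at 16 of the 32 with means of 200 to 1000, but at only 1 of the 13 with means from 1000 up (7.69%).

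Transcript length moved with these deviations. The median deviation from the mean of the 4 libraries, on the log2 scale, was 0.12 in 7LR, 0.05 in 8R, -0.06 in 12RL and -0.07 in 3RL over 561 loci. Over all 18912 loci of that level it was -0.01 in 7LR, 0.03 in 8R, -0.02 in 12RL and 0.01 in 3RL. The value of 8R was -0.049 with libraries scaled to equal table totals. In 76 remote spliced loci with a transcript over 8 kb it was 0.21 in 7LR and 0.06 in 12RL, against -0.12 in 3RL and -0.14 in 8R. In 180 loci of up to 2 kb it was 0.18 in 8R and -0.18 in 12RL, with 7LR at 0.01 and 3RL at 0.00. Spliced UCSC loci had the same order by length, from 0.15 to -0.06 in 8R and from -0.11 to 0.05 in 7LR. At 2 to 8 kb, 7LR was at 0.14 in remote spliced loci, 0.10 in near ones and -0.02 in UCSC loci. In that length class 39.3% of remote spliced loci, 32.3% of near ones and 17.7% of UCSC loci were highest in 7LR. The part of length in the deviations was not tested further.

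**Figure D5:**
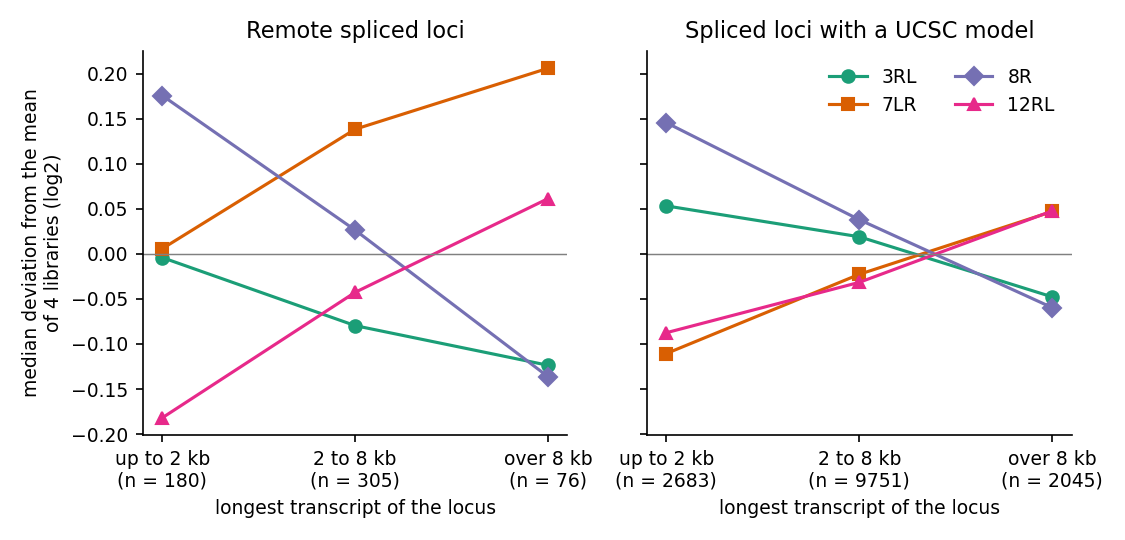
Median log2 deviation of each library from the 4-library mean, by length of the longest transcript, in remote spliced loci (left) and spliced loci with a UCSC model (right). In both panels 8R falls and 7LR rises with length, and in the left panel 7LR lies at 0.01, 0.14 and 0.21.

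The 5 most variable loci differed in which hearts were high. Each of the 5 had an unspliced model, as did 27.3% of all remote spliced loci, and in 3 of the 5 the exons covered the whole span. Only XLOC_021251 had internal exons to compare with GENCODE, and none of these exons matched. By CV among loci whose mean reached 50, XLOC_001240 (chr1:153029124-153058356, minus strand) was first with 62.1%. It had 125 and 101 counts in 3RL and 12RL, and 278 and 401 in 7LR and 8R. XLOC_030902 (chr8:126706363-126711783, plus strand) had 458 counts in 8R, and the other libraries had between 112 and 219. XLOC_021251 (chr4:11043505-11054278, plus strand) was high in 7LR and 8R, with 303 and 205 counts, against 77.6 in 3RL and 101 in 12RL. XLOC_000675 (chr1:181651414-181660831, plus strand) was the reverse in 8R, which had the lowest count of 46.6, while 12RL had 211, and 62.0% of its exon bases lay within exons of other loci. XLOC_000592, which like XLOC_030902 and XLOC_000675 has exons over its whole span, had 178 counts in 7LR and 37.0 in 3RL. The ranking depended on single libraries: without 3RL only 4 of the 10 most variable loci remained among them, without 12RL 5, without 8R 6 and without 7LR 7.

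Single libraries stood apart at few loci. By Dixon's ratio, the gap of the end value to its neighbour over the range of 4 values, a library stood apart upward at 7 of 335 loci (2.09%) and downward at 5 (1.49%). Over all loci of the table at that level the same criterion called 3.15% upward and 1.45% downward, so the remote spliced loci were close to the background. The 7 were in 7LR (3), 8R (3) and 12RL (1).

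Some remote spliced loci lay side by side. Another one lay within 50 kb of 264 of the 755 (35.0%), on the same strand for 132 and on the opposite strand for 132 of them. They formed 110 groups of 2 or more, and a single-exon intergenic locus lay within 10 kb of 367 loci (48.6%). Such shares were not taken for other classes of loci, and the rule keeps remote spliced loci to gaps between annotated ones. Neighbours on 1 strand may be pieces of 1 transcript, so the number of loci is not a number of genes. The largest group held 8 loci on chr11, led by XLOC_004626 (chr11:117287298-117300065) with 1625 ± 352 counts and XLOC_004628 (chr11:117384547-117397351) with 1347 ± 185 counts (SD, n = 4). Both are on the plus strand and shared long noncoding structures. The other 6 had means from 3.99 to 461. XLOC_002849 lies in a group of 4 on chr10, where its neighbours had means of only 50.3, 26.9 and 29.2. These groups were singled out after their values were seen.

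Overlap with other loci coincided with counts of 0. The exons of 86 loci (11.4%) overlapped exons of another locus, on either strand. Their median was 3.40 normalised counts per kb, against 16.1 for the 669 without overlap. Of the 20 loci at 0 in all 4 libraries, 16 had at least 50% of their exon bases within exons of other loci, and 9 were covered completely, whereas 0 of the 735 loci above 0 were covered completely. How the authors counted reads over shared bases is not given in the sources used here, so a 0 at such a locus does not show that it was silent. Loci that were assembled and are at 0 without overlap numbered 4. The models may have been assembled from libraries not analysed here.

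Chromosomes differed in how many of these loci they held for their number of annotated loci. There were 3.69 remote spliced loci per 100 spliced UCSC loci in the whole table, with 6.73 on chromosome 13 and 6.23 on chromosome 12 at the top and 1.36 on chromosome X and 1.75 on chromosome 7 at the bottom. Chromosome X held 11 loci, with 0.275% of the counts. Chromosome 10, which holds XLOC_002849, took 11.3% of them. The size of the gaps between annotated loci was not taken into account.

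The widest loci had long introns and little exon. XLOC_018239 (chr2:47912125-48312868, minus strand) spanned 400744 bases with 9127 bases of exon and had 266, 263, 319 and 266 counts in 3RL, 7LR, 8R and 12RL. XLOC_022107 (chr4:38519147-38803069, minus strand) spanned 283923 bases and had 789 ± 177 counts (SD, n = 4). Both shared a long noncoding structure. XLOC_011683 (chr16:5431295-5709971, plus strand) spanned 278677 bases with 2856 bases of exon, and its 253 ± 21.8 counts were among the more even, with a CV of 8.62%.

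The 3 loci farthest from annotation among those with a mean of at least 10 had means of 22.5 to 33.2 counts. Of the 561 remote spliced loci with a mean of at least 10, 335 reached a mean of 50. XLOC_026015 (chr6:109853374-109856713, plus strand), 738878 bases from a UCSC locus, had 54.7 and 54.6 counts in 7LR and 8R, against 9.55 in 3RL and 14.2 in 12RL. XLOC_018238 (chr2:46275009-46298552, minus strand) had 22.5 ± 6.38 and XLOC_022108 (chr4:38765012-38768249, minus strand) 30.3 ± 14.8 (SD, n = 4). At the distance threshold, the 3 nearest loci inside it, XLOC_028193, XLOC_024103 and XLOC_004090 at 10033, 10037 and 10038 bases, had means of 77.4, 30.7 and 56.3. Exons of other loci covered 83.3% of the exon bases of XLOC_028193. The 3 just outside, XLOC_032501, XLOC_002932 and XLOC_014676 at 9976, 9966 and 9938 bases, had 17.7, 0.285 and 7.44. The span of XLOC_002932 overlaps that of XLOC_002192, a remote spliced locus on the opposite strand. Whether its low count reflects this overlap was not tested.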

How the data were processed

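Poly(A) RNA of 4 Sham hearts was measured. The authors deposited 1 table of signal values, which are read counts per locus divided by 1 size factor per library, and 1 file of exon positions on mm9, per the file headers. Per the submitters' processing notes, DESeq, HTSeq 0.5.4p2, Cufflinks 2.0.2 and TopHat2 2.0.5 were used. The sources used here do not give strandedness or the counting mode. Every value was a whole multiple of 1 step within 0.001, so whole reads were recovered. Counting error at 10 reads is a CV of 31.6%.

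Loci, distances, levels and spread were computed with pandas 2.3.3, scipy 1.17.1 and numpy 2.4.6 in Python 3.11.15. TMM scaling used edgeR 4.0.16 in R 4.3.3, as an alternative only. Levels were log2(value + 1). The scale per kb divides by the union of all exons of a locus. Dixon's ratio was tested on simulated counts, and the distance rule, structure match and sign-flip test on a few made-up cases. Shares, spread and deviations were not tested in this way. The members and lists were chosen with earlier results of these data known. Named loci are the 10 highest in mean, 5 per kb and 5 by CV (mean of 50 or more), 3 each by exons, models, span and distance (mean of 10 or more), and 3 on each side of the threshold. The comparison with GENCODE and the groups of neighbours were added after the data were seen. The reference holds no mm9 genome, so no promoter was printed.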

Additional observations from a re-analysis of the deposited data

Results flagged for a closer look

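Of 45 sets of 4 library values tested, 3 had 1 library well apart from the rest by Dixon's ratio. About 1 in 20 sets would do so by chance. XLOC_018239, the widest remote spliced locus, had 319 normalised counts in 8R with the next library at 266. XLOC_002932, a near spliced locus just outside the distance threshold, had 1.14 counts in 7LR, which is 1 read, and 0 in the other libraries. The overlap of its span with XLOC_002192 is given above. The number of remote spliced loci above 0 was 707 in 12RL, the library with the fewest reads, and 717 in the next lowest.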

How the results depend on the processing

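Of 85 recomputed values, 66 were classed as the same, 18 as moved and 1 as reversed. Level differences were classed by direction only, so those that changed in size are among the 66. No paired analysis was possible because all libraries belong to 1 group. The number of loci was 331 at more than 50 kb and 398 with 3 or more exons, both subsets by construction. A minimum mean of 50 left 335 detected loci. The share of counts was 0.130% of nuclear counts. The median SD was 0.35 with a pseudocount of 0.1, 0.29 with 10, 0.28 at a minimum mean of 50 and 0.35 with equal table totals, and 0.31 to 0.32 with 1 library left out. The deviation of 8R turned from 0.05 to -0.049 with equal table totals, which lower all its values. A library stood apart at 19 loci at a minimum mean of 10, where more loci are tested, against 12. The share highest in 7LR was 55.4% with equal totals. Of the 10 most abundant loci, 5 remained per kb, and 9 to 10 with 1 library left out. Of the 10 most variable, 4 to 7 remained with 1 library left out. Detected loci ran from 558 to 567 and the share of counts from 0.0861% to 0.0925% with 1 library left out. The difference from near spliced loci, without division by length, ran from 0.44 to 0.54 with 1 library left out. With the distance threshold at 50 kb that difference was 0.18 against 0.50. This setting also moved the loci at 10 to 50 kb from the remote to the near group, and the cause of the change was not tested. The level differences kept their direction in all alternatives run, with an exact permutation p of 0.13, or 0.25 with 3 libraries. Depth limits loci near 10 reads.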
